A study of Oryza sativa with 40 samples.

Results

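The 6 genes described here encode membrane-bound omega-3 and omega-6 fatty acid desaturases of rice. They were taken from the deposited table by their locus identifiers, with a product name containing the word desaturase, and make up 6 of its 19308 genes. The rule uses no expression value, but the members were chosen with earlier results of these data known. Having a row in the table was part of the rule. The gene symbols used below come from the rice literature, since the table gives only product names.

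Plants of Oryza sativa cultivar IR64 were raised in hydroponic tanks at 30 °C by day and 25 °C by night, called warm here. Tanks were then moved to 40 °C by day and 35 °C by night (hot), moved to 25 °C by day and 20 °C by night (cold), or left warm. Leaves already fully expanded at the move were sampled over the middle of the blade, in daylight, and total RNA depleted of ribosomal RNA was sequenced. The groups were hot at 2, 6 and 24 h, cold at 2, 6 and 24 h, and warm at 0, 2, 6 and 24 h, each with 4 libraries. All plants carried the same genotype, and libraries are not tied to tanks in the labels, so the p-values measure only the spread between these libraries, which may be technical in part.

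Fatty acid desaturases insert double bonds into acyl chains that are already part of membrane lipids. The omega-6 enzymes turn oleic acid into linoleic acid, and the omega-3 enzymes turn linoleic acid into alpha-linolenic acid, the main fatty acid of thylakoid lipids and the precursor of jasmonic acid. Plants have a plastid set, which draws electrons from ferredoxin, and a set in the endoplasmic reticulum (ER), which draws them from cytochrome b5. In Arabidopsis, plastid FAD8 is known as the omega-3 enzyme that is lost at high temperature, largely at the protein level, and more polyunsaturated membranes are a textbook feature of plants in the cold.

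FAD8 (LOC_Os07g49310, chromosome 7, 29531227 to 29534135, plus strand) and FAD7 (LOC_Os03g18070, chromosome 3, 10080248 to 10083451, minus strand) are the plastid omega-3 genes, and the table names both as chloroplast precursors. FAD6 (LOC_Os08g34220, chromosome 8, 21450962 to 21455969, minus strand) is the plastid omega-6 gene. FAD2-1 (LOC_Os02g48560, chromosome 2, 29725112 to 29727482, minus strand) is an ER omega-6 gene, named only as a fatty acid desaturase. FAD3-1 (LOC_Os11g01340, chromosome 11, 199733 to 203904, minus strand) and FAD3-2 (LOC_Os12g01370, chromosome 12, 226239 to 230189, minus strand) are the ER omega-3 genes in the literature, although the table names FAD3-1 as a chloroplast precursor. Both lie near the ends of chromosomes 11 and 12 that carry a duplicated segment, so reads may be split between them and their separate values are uncertain. Positions are those of the deposited table, with build IRGSP-1.0 per the submitters' processing notes, and span the gene with its introns. No exon length was at hand, so levels are compared within a gene and never between genes.

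Libraries held 1830817 to 9628451 reads assigned to genes, with a median of 5853252, and 3 reads stood for 0.293 to 2.06 CPM (reads scaled by library size). Warm 0 h replicate 1 and hot 24 h replicate 1 stood apart from their group mates, with mean correlations of 0.860 and 0.894. Hot 24 h replicate 2 was close to the latter, at 0.905. Sequencing lane, read from the sample names, followed temperature: warm libraries ran on lanes 1 and 2, hot on lanes 2 and 3, and cold on lanes 3 and 4. Lane and temperature therefore cannot be told apart between cold and warm, which shared no lane. All 20 mesophyll markers (Rubisco small subunits, Rubisco activase and chlorophyll-binding proteins) were measured, and their summed level was at least 34114 CPM in every library. The sum over 3 vascular cellulose synthases (CESA4, CESA7 and CESA9) ran between 0.19 and 24.7 CPM in all libraries except hot 24 h replicate 1, which had 159 CPM. In bulk leaf tissue, fewer cells of a type and less RNA per cell cannot be told apart.

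In the heat, the plastid omega-3 gene FAD8 was called lower at 2 h only, close to the threshold. With 1 library left out the call held in 1 of 8 fits, and it was lost with lane as a term. FAD8 had a geometric mean of 3.06 CPM in hot leaves at 2 h, against 13.5 CPM in warm leaves. By 6 h the corresponding levels were 1.69 CPM and 7.0 CPM, a difference that did not pass the test. Its partner FAD7 showed the same sign at 2 h without passing the test, and the other members gave smaller or noisier differences. By 24 h no member differed between hot and warm leaves past the threshold. In cold leaves no member passed the test against warm leaves at any hour.

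**Figure D1:**
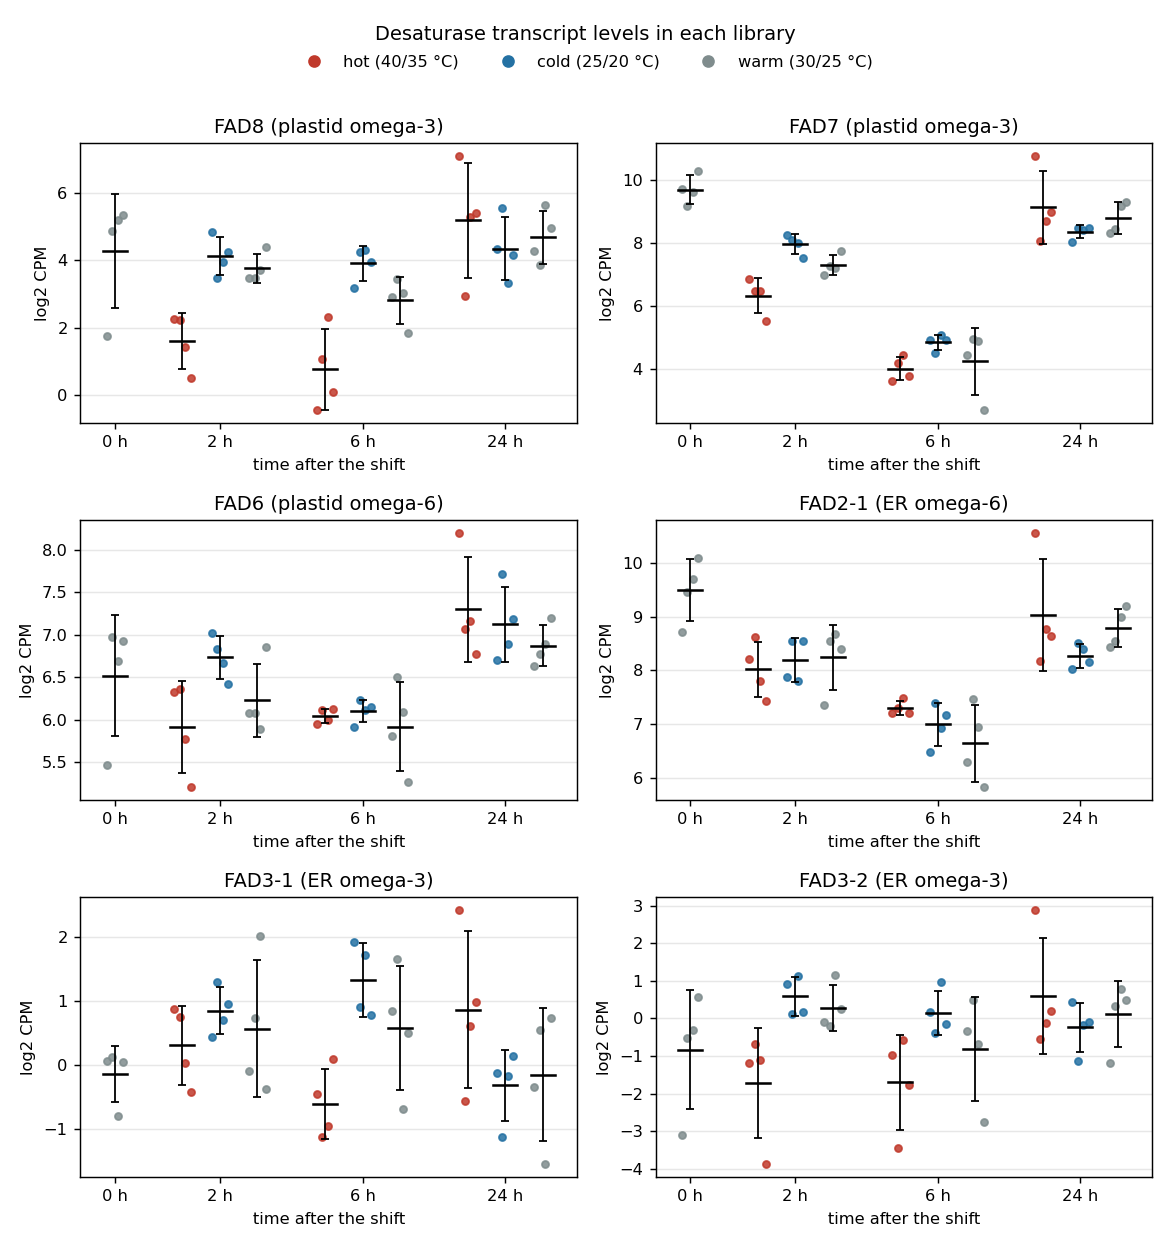
Transcript level (log2 CPM, vertical axis) of each of the 6 desaturase genes in each of the 40 libraries, by hours after the temperature shift (horizontal axis); points are libraries, black bars are group means with the SD of 4 libraries, and each panel has its own scale. FAD8 is low in hot libraries at 2 and 6 h. FAD8, FAD7 and FAD2-1 have their lowest mean at 6 h in every temperature, and hot 24 h replicate 1 tops its group for all 6 genes.

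FAD8 had 4.79, 4.72, 2.70 and 1.43 CPM in the hot 2 h libraries, against 11.1, 11.2, 13.0 and 20.9 CPM in the warm 2 h libraries. The groups did not overlap. The log2 difference was -2.15 ± 0.68 (SE of the limma fit), with a 95% interval of -3.53 to -0.77 and a Benjamini-Hochberg adjusted p of 0.0442 over all genes. FAD8 was the single member called in this comparison, in which limma called 8.2% of all genes, with 4.58% of all genes lower. The call lies close to the threshold: it was lost on leaving out any of the libraries except hot 2 h replicate 2, with adjusted p of 0.0403 to 0.172, and with lane as a term it stood at -2.21 with adjusted p = 0.147. On lane 2 alone, 2 hot libraries lay 2.13 log2 units below the single warm one. The vascular markers moved along, at a summed 0.27 to 8.55 CPM in hot 2 h libraries and 3.48 to 17.2 CPM in warm ones. All 3 genes were lower, with a median log2 difference of -2.25. They were close to the detection limit, with geometric means over all libraries of 1.98 (CESA4), 0.779 (CESA7) and 0.555 CPM (CESA9). The summed mesophyll markers were at 65133 to 119818 CPM in hot libraries and 69131 to 143394 CPM in warm ones, and the part of either in the FAD8 difference was not tested.

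At 6 h FAD8 had 0.733, 2.11, 4.97 and 1.07 CPM in hot libraries, against 7.55, 10.97, 8.13 and 3.56 CPM in warm libraries. Hot replicate 3 reached above the lowest warm library, so the groups overlapped. The log2 difference was -2.05 ± 0.68 with adjusted p = 0.0620, and none of the 6 members was called where 6.9% of all genes were. An unadjusted p under 0.05 was found for 2 members and for 3888 of all 19308 genes. The value of FAD8 passed the threshold without hot replicate 3, at -2.56 with adjusted p = 0.0266, and without warm replicate 4, at -2.37 with adjusted p = 0.0469. On lane 2 the single hot library lay 2.88 log2 units below 2 warm ones.

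FAD7 had 115, 88.6, 88.3 and 46.0 CPM in hot 2 h libraries, against 126, 156, 147 and 213 CPM in warm 2 h libraries. Every hot library lay below every warm one, yet the log2 difference of -0.97 ± 0.40 did not pass (adjusted p = 0.130). At 6 h it had 12.2, 17.9, 21.7 and 13.7 CPM in hot libraries. Warm libraries had 21.8, 31.04, 29.4 and 6.40 CPM, with replicate 4 below all hot ones. The log2 difference was -0.24 ± 0.40 (adjusted p = 0.811). At 2 h an unadjusted p under 0.05 was found for 3 members and for 4560 of all 19308 genes. The share of all genes whose groups did not overlap was not counted, here or in the other comparisons.

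Neither omega-6 member passed the test between hot and warm leaves. FAD6 differed by -0.31 ± 0.30 log2 units at 2 h (adjusted p = 0.570) and by 0.13 ± 0.30 at 6 h (adjusted p = 0.870). FAD2-1 differed by -0.22 ± 0.37 at 2 h (adjusted p = 0.768) and by 0.66 ± 0.37 at 6 h (adjusted p = 0.331). At 6 h the hot FAD2-1 libraries were tightly grouped at 148, 159, 180.2 and 148 CPM, within the warm range set by 79.5, 178, 125 and 57.3 CPM except for hot replicate 3.

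The ER omega-3 genes were close to the detection limit. FAD3-1 gave 0 to 29 reads per library and FAD3-2 gave 0 to 36, with 3 reads or fewer in 7 and 15 of the 40 libraries. FAD3-2 had 2, 3, 2 and 0 reads in the hot 2 h libraries and 7, 5, 7 and 8 reads in the warm ones. These groups did not overlap, and the fitted log2 difference of -1.999 ± 0.78 did not pass (adjusted p = 0.104). At 6 h FAD3-1 had 6, 2, 3 and 5 reads in hot libraries and 12, 23, 2 and 14 reads in warm ones, and the fitted log2 difference was -1.19 ± 0.56 (adjusted p = 0.219). Fitted differences at such counts depend on the 0.5 reads added before the log.

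At 24 h limma called no gene of the whole table between hot and warm leaves (0.0% of 19308). No member had an unadjusted p under 0.05, against 1206 of all genes. FAD8 had 137, 7.71, 39.03 and 42.7 CPM in hot libraries and 19.2, 14.5, 50.4 and 30.9 CPM in warm libraries. FAD7 had 1748, 267, 418 and 514 CPM in hot libraries and 316, 348, 577 and 640.1 CPM in warm libraries. Hot replicate 1 was the highest of its group for all 6 members, with 1494 CPM of FAD2-1 and 293 CPM of FAD6. That library also had the highest summed mesophyll markers of all, 263774 CPM, and the lowest library scaling factor, 0.706. With it, the log2 differences were 0.50 ± 0.68 for FAD8, 0.33 ± 0.40 for FAD7 and 0.24 ± 0.37 for FAD2-1, and without it they were -0.13, -0.22 and -0.26. With other libraries left out in turn they reached up to 1.25 for FAD8, 0.68 for FAD7 and 0.53 for FAD2-1.

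The change in the hot difference between 2 and 24 h was tested as a difference of differences. It was 2.65 ± 0.96 log2 units for FAD8, with adjusted p = 0.176, and 1.30 ± 0.57 for FAD7, with adjusted p = 0.273. None of the members was called, against 0.834% of all genes, while 3 had an unadjusted p under 0.05. Leaving out hot 24 h replicate 2, the lowest of its group for FAD8, gave 3.399 with adjusted p = 0.0316, within a range of 0.0316 to 0.388 over the libraries left out.

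**Figure D2:**
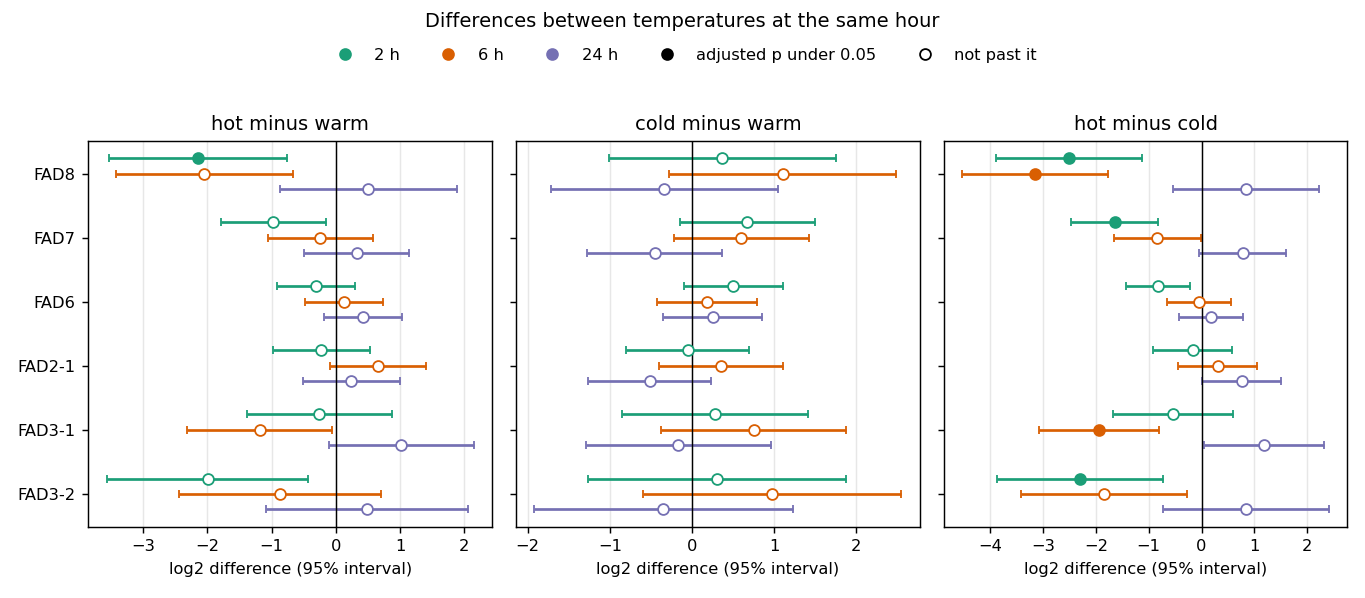
Log2 difference in transcript level (horizontal axis, with its 95% interval from the limma fit) of the 6 desaturase genes at 2, 6 and 24 h, for hot minus warm, cold minus warm and hot minus cold leaves; filled points have an adjusted p under 0.05. FAD8 at 2 h is the single filled point for hot minus warm, no point is filled for cold minus warm, and 5 points are filled for hot minus cold, all below 0.

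No desaturase passed the test between cold leaves and warm leaves of the same hour. Limma called 0.0% of all genes at 2, 6 and 24 h in this comparison. None of the 6 members had an unadjusted p under 0.05 at any hour, against 1251, 869 and 1457 of all 19308 genes. FAD8 had 28.4, 11.2, 15.4 and 19.1 CPM in cold 2 h libraries, against 11.1 to 20.9 CPM in warm ones, a log2 difference of 0.37 with a 95% interval of -1.01 to 1.75. At 6 h it had 9.01, 18.8, 19.6 and 15.5 CPM in cold libraries, against 3.56 to 10.97 CPM in warm ones, a log2 difference of 1.11 with an interval of -0.28 to 2.49. FAD7 differed by 0.67 ± 0.40 at 2 h, 0.60 ± 0.40 at 6 h and -0.45 ± 0.40 at 24 h. The intervals are wide enough to hold a doubling of FAD8 at each hour.

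More members were called between hot and cold leaves. Hot leaves at 2 h had lower FAD7, FAD8 and FAD3-2 than cold leaves, so that 3 of 6 members were called lower where limma called 15.1% of all genes, with 8.32% of all genes called lower. At 6 h FAD8 and FAD3-1 were lower, 2 of 6 members, where 8.28% of all genes were called, with 5.11% of all genes called lower. At 2 h the vascular markers were lower as well, at a summed 0.27 to 8.55 CPM in hot libraries and 2.17 to 10.8 CPM in cold libraries, with all 3 genes lower and a median log2 difference of -1.88; their part in these differences was not tested. At 6 h that median was -0.05, and these markers were close to the detection limit. These comparisons share their hot libraries with those above, so they are not independent of them.

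FAD7 had 115, 88.6, 88.3 and 46.0 CPM in hot 2 h libraries, against 308, 275, 254 and 185 CPM in cold 2 h libraries. The groups were well apart. The log2 difference was -1.65 ± 0.40 with adjusted p = 0.00505, it passed with each library left out in turn, and on lane 3 alone 2 hot libraries lay 2.27 log2 units below the single cold one.

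FAD8 at 2 h had 1.43 to 4.79 CPM in hot libraries, against 11.2 to 28.4 CPM in cold libraries, a log2 difference of -2.52 ± 0.68 (adjusted p = 0.0105). This call was lost without hot replicate 4, at -2.15 with adjusted p = 0.0585, and with lane as a term, at -2.89 with adjusted p = 0.0503. At 6 h FAD8 had 0.733 to 4.97 CPM in hot libraries, against 9.01 to 19.6 CPM in cold libraries. The log2 difference was -3.15 ± 0.68 (adjusted p = 0.00247), and it passed under every alternative tried, with values between -3.97 and -2.53. On lane 3 alone it was -2.01, from 3 hot libraries and 1 cold one.

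FAD6 had 80.5, 82.0, 54.7 and 37.03 CPM in hot 2 h libraries, against 130.1, 114, 102 and 85.8 CPM in cold 2 h libraries. All hot libraries were lower, and the log2 difference of -0.82 ± 0.30 missed the threshold (adjusted p = 0.0595). With 1 library left out it passed in only 2 of 8 fits. Its value then ran between -0.96 and -0.58, with adjusted p of 0.0383 to 0.256. It passed without hot replicate 1, at -0.95 with adjusted p = 0.0455, and without hot replicate 2, at -0.96 with adjusted p = 0.0383. It also passed with lane as a term, at -1.20 (adjusted p = 0.0463), with a replicate block and lane, at -1.57 (adjusted p = 0.0303), with libraries shifted to one median (adjusted p = 0.0403), with only the groups compared (adjusted p = 0.0418) and without the 2 libraries that stand apart (adjusted p = 0.0113). FAD2-1 gave -0.17 ± 0.37 at 2 h and 0.30 ± 0.37 at 6 h, with overlapping groups.

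FAD3-2 had 2, 3, 2 and 0 reads in hot 2 h libraries and 10, 5, 11 and 5 reads in cold 2 h libraries, a fitted log2 difference of -2.30 ± 0.78 (adjusted p = 0.0398). The call was lost on leaving out hot replicate 3 or 4 or cold replicate 1, 3 or 4, with adjusted p of 0.0504 to 0.217, and with log2 of CPM plus 1, at -0.91 with adjusted p = 0.0639. FAD3-1 had 6, 2, 3 and 5 reads in hot 6 h libraries and 28, 13, 29 and 8 reads in cold 6 h libraries, a fitted log2 difference of -1.94 ± 0.56 (adjusted p = 0.0238). That call was lost without hot replicate 2 or 3 or cold replicate 1 or 3, with adjusted p of 0.0633 to 0.0898, and over the other alternatives the value ran between -2.87 and -1.12. At 24 h limma called none of the members and 0.0% of all genes between hot and cold leaves, although 423 genes were called without hot 24 h replicate 2. FAD2-1 and FAD3-1 had an unadjusted p under 0.05, as did 1469 of all 19308 genes.

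In leaves that stayed warm, 2 of the 6 desaturases were called at single hours against 0 h, and 3 in a test over all warm hours (below). FAD7 and FAD2-1 fell at 2 h and at 6 h against 0 h, and at 24 h, the same time of day as 0 h, neither passed the test. At 2 h these 2 members were called lower, where limma called 22.3% of all genes, with 9.69% of all genes called lower. At 6 h the same 2 members were called lower, where 43.9% of all genes were called and 19.6% of all genes were called lower, so that a share of 33.3% of the members lies below that of all genes called. At 24 h no member was called, against 2.92% of all genes. FAD7 alone of the members had an unadjusted p under 0.05, as did 3840 of all 19308 genes. Cell type markers moved over the same hours. The summed mesophyll markers were at 35107 to 77227 CPM in warm 6 h libraries and 81595 to 180793 CPM in warm 0 h libraries, with 16 of 20 genes lower and a median log2 difference of -0.87, and at 24 h they were at 100413 to 180006 CPM. The guard cell marker, a malic acid transport protein gene (LOC_Os04g48530), was at 11.4 to 17.8 CPM in warm 6 h libraries, against 21.8 to 38.5 CPM in warm 0 h libraries. The 3 vascular markers, close to the detection limit, were higher at 6 h, with a median of 0.82. Of 41 genes of dividing cells 24 were lower, with a median of -0.17. The part of these markers in the change of FAD7 and FAD2-1 was not tested.

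FAD7 had 21.8, 31.04, 29.4 and 6.40 CPM in warm 6 h libraries, against 844, 577, 789.9 and 1246 CPM in warm 0 h libraries. The log2 difference was -5.46 ± 0.40 (adjusted p = 2.2e-13). At 2 h it was -2.40 ± 0.40 (adjusted p = 3.79e-05), with 126, 156, 147 and 213 CPM in warm 2 h libraries. FAD7 passed at both hours with each library left out and within lanes gave -4.81 on lane 1 and -6.51 on lane 2 at 6 h.

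FAD2-1 had 79.5, 178, 125 and 57.3 CPM in warm 6 h libraries, against 421, 699, 829 and 1087 CPM in warm 0 h libraries, a log2 difference of -2.84 ± 0.37 (adjusted p = 9.15e-08). At 2 h, with 164, 372, 410.0 and 339 CPM, the difference of -1.24 ± 0.37 passed (adjusted p = 0.0137). That call was lost without warm 2 h replicate 1, at -0.95 with adjusted p = 0.0875, and without warm 0 h replicate 4, at -1.04 with adjusted p = 0.0559.

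FAD8 and FAD6 depended on warm 0 h replicate 1, which stood apart. In that library FAD8 was at 3.38 CPM while its mates had 29.04, 36.6 and 40.5 CPM, and FAD6 was at 44.2 CPM while its mates had 126, 104 and 122 CPM. FAD8 at 6 h gave -1.48 ± 0.68 against 0 h (adjusted p = 0.0760), and -2.32 without that library (adjusted p = 0.00452). FAD6 gave -0.59 ± 0.30 (adjusted p = 0.105), and -0.94 without it (adjusted p = 0.00763); it also passed without warm 6 h replicate 2, at -0.79 (adjusted p = 0.0440). In a moderated F test over the 4 warm hours, FAD7, FAD2-1 and FAD6 passed, 3 of 6 members where 44.7% of all genes passed. The adjusted p of FAD6 was 0.0469 and ran between 0.00176 and 0.151 over the alternatives and the libraries left out; of the 16 warm libraries, its call held without warm 0 h replicate 1, warm 2 h replicate 4 or warm 6 h replicate 2 and was lost without any of the others. FAD8 passed this test without warm 0 h replicate 1 (adjusted p = 0.0132), against 0.0979 with it.

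The levels by hour at each temperature are given as a description, without a test. FAD7 had geometric means of 80.3, 15.99 and 563 CPM in hot leaves at 2, 6 and 24 h, of 251, 28.6 and 328 CPM in cold leaves, and of 158, 18.9 and 449 CPM in warm leaves. FAD2-1 had 260.0, 158 and 524 CPM in hot leaves, 293, 128 and 309 CPM in cold leaves, and 304, 100.3 and 443 CPM in warm leaves. For both genes the 6 h group was the lowest of its temperature. FAD8 had 3.06, 1.69 and 36.4 CPM in hot leaves and 17.5, 15.1 and 20.3 CPM in cold leaves. In warm leaves it had 13.5, 7.0 and 25.7 CPM. Its 6 h group was likewise the lowest of each temperature.

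Ranked over the 10 groups, FAD7 was highest in warm 0 h, then hot 24 h, warm 24 h, cold 24 h, cold 2 h, warm 2 h, hot 2 h, cold 6 h, warm 6 h and hot 6 h. Among these neighbours, only warm 2 h and hot 2 h, and hot 2 h and cold 6 h, had ranges that did not overlap. FAD8 ran hot 24 h, warm 24 h, cold 24 h, warm 0 h, cold 2 h, cold 6 h, warm 2 h, warm 6 h, hot 2 h and hot 6 h, and only the neighbours warm 2 h and warm 6 h did not overlap. FAD2-1 ran warm 0 h, hot 24 h, warm 24 h, cold 24 h, warm 2 h, cold 2 h, hot 2 h, hot 6 h, cold 6 h and warm 6 h, with every pair of neighbours overlapping. FAD6 varied least, between 60.5 CPM in hot 2 h and 157 CPM in hot 24 h, and all its neighbours overlapped, as did those of FAD3-1 (0.658 CPM in hot 6 h to 2.52 CPM in cold 6 h) and of FAD3-2 (0.305 CPM in hot 2 h to 1.52 CPM in hot 24 h).

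A ratio of a pair of desaturases within a library is free of the library scaling, but at a few reads it depends on depth through the 0.5 reads added to each gene. The log2 ratio of FAD8 over FAD7 was -4.59, -4.23, -5.03 and -5.01 in hot 2 h libraries, against -3.50, -3.81, -3.50 and -3.35 in warm 2 h libraries. The difference was -1.17, without overlap. At 6 h the ratio was -4.06, -3.08, -2.13 and -3.68 in hot libraries, against -1.53, -1.50, -1.85 and -0.84 in warm libraries, a difference of -1.81, again without overlap. Against cold 6 h libraries, at -1.73, -0.25, -0.76 and -0.96, the hot 6 h difference was -2.31, also without overlap.

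Each of these ratios reached the smallest p that an exact two-sided permutation test of 4 against 4 allows, 0.0286. Over the 27 tests, 3 pairs in 9 temperature comparisons, the smallest Benjamini-Hochberg adjusted value was 0.129, so none passed. The other 3 at the smallest exact p were FAD3-2 over FAD3-1 for hot minus warm at 2 h (-1.74, which rests on 0 to 3 reads of FAD3-2 in the hot libraries and was -0.54 with log2 of CPM plus 1), FAD6 over FAD2-1 for hot minus warm at 6 h (-0.53), and FAD6 over FAD2-1 for cold minus warm at 24 h (0.77). In the last, the ratio was -1.31, -0.80, -1.50 and -0.98 in cold libraries, against -1.81, -1.76, -2.10 and -1.99 in warm libraries. FAD6 was thus higher relative to FAD2-1 in every cold library. Cold and warm libraries shared no lane, so lane and temperature cannot be told apart here.

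**Figure D3:**
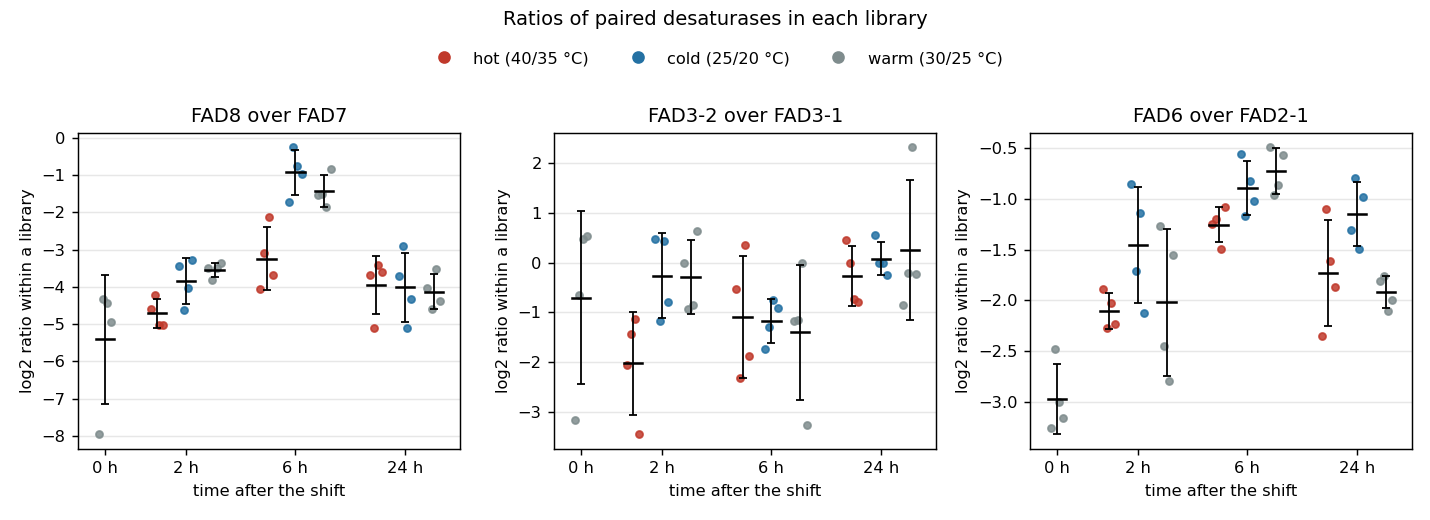
Log2 ratio within each library (vertical axis) of FAD8 over FAD7, FAD3-2 over FAD3-1 and FAD6 over FAD2-1, by hours after the temperature shift; points are libraries and black bars are means with the SD of 4 libraries. The FAD8 over FAD7 ratio is lower in hot than in warm libraries at 2 and 6 h, with log2 differences of -1.17 and -1.81. At 24 h the hot libraries overlap the warm and cold ones.

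Among the members themselves, FAD7 and FAD2-1 followed each other most closely over the 40 libraries (Pearson r = 0.891), then FAD8 and FAD6 (r = 0.757). FAD3-1 had r = -0.01 with FAD7 and r = 0.01 with FAD2-1. These correlations are descriptions: the libraries share hour, temperature and scaling. Likeness was read over 10945 genes whose mean log2 CPM was 2 or more and whose product name says more than hypothetical or expressed. Most like FAD7 were an NAD dependent epimerase/dehydratase (LOC_Os08g28730, r = 0.974) and an S-adenosylmethionine synthetase (LOC_Os01g22010, r = 0.972). Those most like FAD8 were a protein kinase (LOC_Os01g41870, r = 0.888) and a 3-phosphoadenosine 5-phosphosulfate synthetase (LOC_Os04g02050, r = 0.886). FAD2-1 was closest to a rhodanese-like protein (LOC_Os01g67120) and a phytoene synthase (LOC_Os06g51290), both at r = 0.935, and FAD6 to a prenyltransferase (LOC_Os07g38850) and a Rossmann fold protein (LOC_Os01g23680), both at r = 0.887. The scarce ER genes gave lower values, 0.657 for FAD3-1 with a katanin subunit (LOC_Os04g58130) and 0.819 for FAD3-2 with a heparanase-like protein (LOC_Os02g55870); the next were a PHD-finger protein (LOC_Os06g10690, 0.645) and a leaf senescence related protein (LOC_Os03g60350, 0.773).

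The genes upstream and downstream of the desaturases were called in the heat at shares on either side of those of all genes, 8.2% at 2 h and 6.9% at 6 h. At 2 h the shares called were 11.1% of plastid synthesis and 4.55% of glycerolipid assembly. They were 13.3% of users of polyunsaturated acids and 5.0% of electron donors with their reductases. Each share is 1 to 3 genes. The plastid synthesis list was taken by product name, and its malonyl transacylase (LOC_Os03g18590) is named as a mitochondrial precursor. Of 27 plastid fatty acid synthesis genes, which supply the acyl chains, 2 rose and 1 fell in hot leaves at 2 h and 2 rose at 6 h. Their median log2 change was 0.29 at 2 h and 0.38 at 6 h, beside 0.01 and -0.04 for all genes. A 3-oxoacyl synthase (LOC_Os04g36800), of the chain elongation cycle, rose at 2 h to 4.05 CPM in hot leaves, against 0.636 CPM in warm leaves near the detection limit (adjusted p = 0.0143). A myristoyl-acyl carrier protein thioesterase (LOC_Os06g05130), which releases finished chains, fell to 18.3 CPM in hot leaves, against 54.1 CPM in warm leaves (adjusted p = 0.0197).

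The list of 22 glycerolipid assembly genes holds makers of lipids that the desaturases act on, and also diacylglycerol acyltransferases. Of these 22 genes, 1 fell in hot leaves at 2 h and 2 fell at 6 h, and the medians were -0.04 and 0.05. A digalactosyldiacylglycerol synthase (LOC_Os11g05990), which makes a thylakoid galactolipid, fell at 6 h to 14.3 CPM in hot leaves, against 27.5 CPM in warm leaves (adjusted p = 0.00209). A glycerol-3-phosphate acyltransferase (LOC_Os02g02340) was called lower at 6 h, at 0.575 CPM in hot leaves and 1.57 CPM in warm leaves, both close to the detection limit (adjusted p = 0.0162).

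Of 15 genes that use polyunsaturated acids, 2 fell in hot leaves at 2 h and none passed at 6 h. At 6 h 2 of them had an unadjusted p under 0.05, against 3888 of all 19308 genes. The medians were -0.26 and -0.10. A lipoxygenase (LOC_Os03g08220), which oxygenates linoleic and linolenic acid, fell to 50.8 CPM in hot leaves, against 112 CPM in warm leaves (adjusted p = 0.00273). A 12-oxophytodienoate reductase (LOC_Os06g11290), of a family whose members make jasmonic acid precursors, fell to 0.531 CPM in hot leaves, about the level of 3 reads, against 5.78 CPM in warm leaves (adjusted p = 0.00321).

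The list of electron donors held 20 genes with cytochrome b5 or ferredoxin in the product name. Besides such proteins it held NADH-cytochrome b5 reductases and ferredoxin-NADP reductases, which are not the donors themselves. In hot leaves 1 gene of this list fell at 2 h and 1 at 6 h, with medians of -0.01 and -0.19. Both were cytochrome b5-like proteins. LOC_Os02g55060 had 134.8 CPM in hot leaves at 2 h, against 232 CPM in warm leaves (adjusted p = 0.0374). LOC_Os05g01820 had 66.4 CPM in hot leaves at 6 h, against 95.5 CPM in warm leaves (adjusted p = 0.0315). The 2 soluble acyl-ACP desaturases, which make oleic acid before the membrane enzymes act, did not pass in hot leaves at 2, 6 or 24 h, with no unadjusted p under 0.05. A desaturase/cytochrome b5 protein (LOC_Os09g16920) differed by -0.75 log2 units at 2 h and by -0.97 at 6 h, each with an unadjusted p under 0.05 but not past the adjusted threshold. In cold leaves limma called no gene of any list at any hour. Of the 27 plastid synthesis genes, 3 at 2 h, 0 at 6 h and 4 at 24 h had an unadjusted p under 0.05. Among all 19308 genes these numbers were 1251, 869 and 1457.

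Through the warm day the calls in these lists are read against 43.9% of all genes called at 6 h, with 19.6% of all genes lower. At 6 h against 0 h, 11 of the 22 glycerolipid assembly genes fell and 1 rose, with a median log2 change of -0.45 beside 0.08 for all genes. Both soluble acyl-ACP desaturases fell, as FAD7 and FAD2-1 did, and LOC_Os09g16920 rose by 1.89 log2 units. Of the plastid synthesis genes 7 rose and 3 fell, of the users of polyunsaturated acids 2 rose and 5 fell, and of the electron donors 7 rose and 1 fell. The shares called were 54.5% of glycerolipid assembly, 37% of plastid synthesis, 46.7% of the users and 40.0% of the electron donors, near that of all genes for the last 3 lists.

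**Figure D4:**
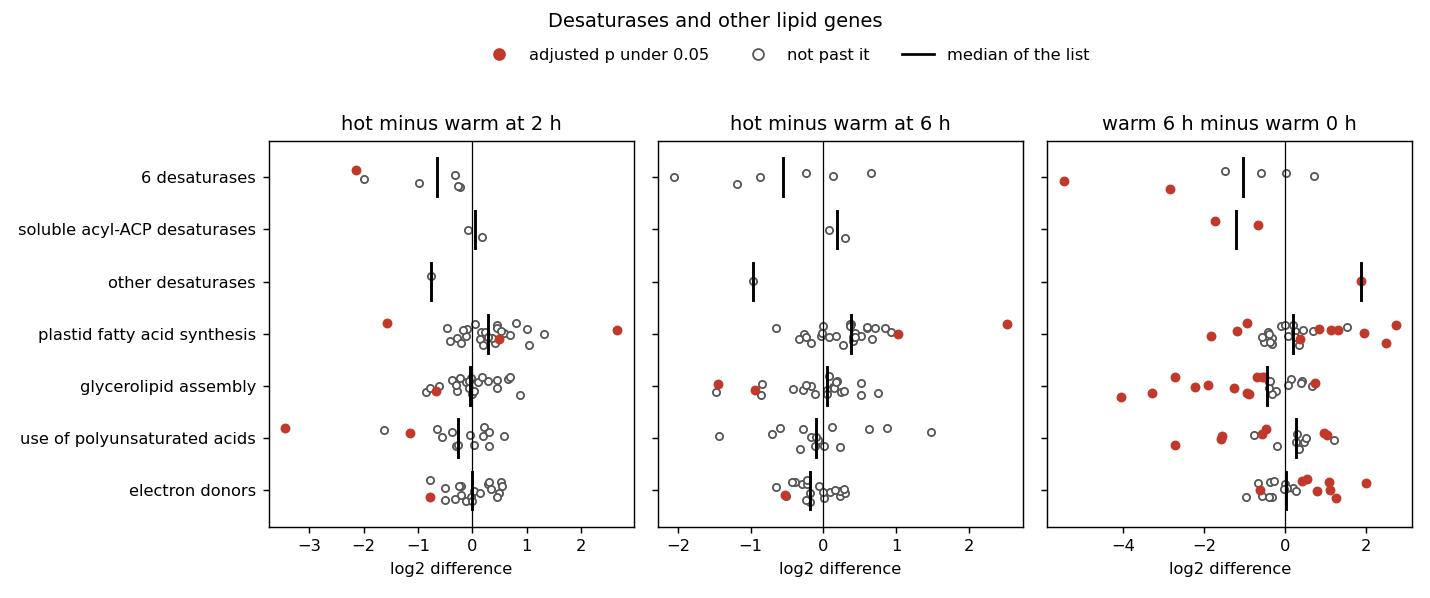
Log2 difference (horizontal axis) of each of the 6 desaturases and of the genes of 6 related lists (rows), for hot minus warm at 2 h, hot minus warm at 6 h and warm 6 h minus warm 0 h; each point is a gene, red points have an adjusted p under 0.05, and black ticks are medians. In the first panel FAD8 is the single red point among the desaturases, and in the third FAD7 and FAD2-1 are red at -5.46 and -2.84.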

How the data were processed

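RNA-seq was measured in 40 leaf libraries, 10 groups of 4. The authors deposited a table of log2 values, the log2 CPM that limma voom writes: reads plus 0.5 over a scaled library size. In every library 100% of the values gave whole reads within 0.001, which yielded the read numbers. Per the submitters' processing notes, reads were handled with Subread and featureCounts (both 1.5.0-p1), SAMtools 1.1-26, edgeR 3.4.2, limma 3.20.1, FastQC 0.11.2, bedtools and bcl2fastq, and the build was IRGSP-1.0. Not given in the sources used here are the strand setting, the filter on low genes and how libraries were scaled. The labels' protocols name a stranded kit, and without the strand setting reads of an antisense partner cannot be told apart from those of a gene.

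In R 4.3.3, limma 3.58.1 was fitted to group means over all 19308 genes (trended, robust empirical Bayes, two-sided tests). Genes were called at a Benjamini-Hochberg adjusted p under 0.05 within a comparison. The script was tested on simulated data. Alternatives were log2 of CPM plus 1, a mean of at least 10 reads, median and quantile scaling, no scaling (added after seeing the data), lane and replicate terms, voom weights, a plain prior, only the groups compared, and libraries left out. Floors cover counting error only. Plots used matplotlib 3.10.9, and tables used numpy 2.4.6 and pandas 2.3.3 under Python 3.11.15.

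The members, related lists and tests were chosen with earlier results of these data known. Lists come from patterns on product names, trimmed of cytochromes b561 and b559, nitrite reductase and other products that only share a word. Named genes are all members, the 2 genes of each list with the smallest adjusted p over the comparisons with warm if they pass, and the 2 genes of highest r with each member; LOC_Os09g16920 was named as the only gene of its list.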

Additional observations from a re-analysis of the deposited data

Results flagged for a closer look

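Of 60 sets of 4 libraries, a gene in a group each, 4 held a library far from the other 3; chance gives about 1 in 20. FAD8 was at 3.38 CPM in warm 0 h replicate 1, below 29.04, 36.6 and 40.5 CPM in its mates, and that library also stood apart over all genes. FAD7 was at 265 CPM in cold 24 h replicate 1, below 356, 341 and 359 CPM in its mates. FAD3-1 was at 0.577 CPM in warm 0 h replicate 3, which is 2 reads. FAD3-2 was at 0.0679 CPM in hot 2 h replicate 4, which is 0 reads.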

How the results depend on the processing

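Over 90 results of single members and 1914 values under alternatives, 1764 kept their direction and side of the threshold and 75 reversed. None of the 13 called results reversed, and 233 of their 282 values under alternatives stayed past the threshold. FAD7 and FAD2-1 at warm 6 h, FAD7 at warm 2 h and for hot minus cold at 2 h, and FAD8 for hot minus cold at 6 h passed under all alternatives and with each library left out. FAD8 for hot minus cold at 2 h also missed with voom weights (adjusted p = 0.0510) and with block and lane (0.0545). Its adjusted p ran from 0.0012 to 0.0545 over the alternatives and reached 0.0585 with 1 library left out. With only the groups compared, FAD7 passed for hot minus warm at 2 h (adjusted p = 0.0311) and hot minus cold at 6 h (0.00536), and FAD2-1 missed at warm 2 h (0.0599). Without the 2 libraries apart FAD3-2 passed for hot minus warm at 2 h (0.0361). At warm 6 h FAD8 passed after quantile normalization (0.0423), and FAD6 with libraries shifted to one median (0.0399) or with block and lane (0.0445).

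For hot minus warm at 2 h, with 1 member called, the number became 0 with log2 of CPM plus 1, lane as a term, voom weights, a plain prior or no library scaling, and 2 without the 2 libraries that stand apart or with only the groups compared. For hot minus warm at 6 h, with 0 called, it became 1 without the 2 libraries that stand apart, with no library scaling or with only the groups compared. Requiring a mean of at least 10 reads drops FAD3-1 and FAD3-2 and left 1 for hot minus cold at 6 h. Only the groups compared left 1 for warm 2 h minus 0 h, and without the 2 libraries apart warm 6 h minus 0 h had 4. With 1 library left out, the number ran between 0 and 1 for hot minus warm at 2 h and at 6 h and for the hot change between 2 and 24 h, 1 and 4 for hot minus cold at 2 h, 1 and 2 for hot minus cold at 6 h and for warm 2 h minus 0 h, and 2 and 4 for warm 6 h minus 0 h.

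The same replicate numbers occur in all groups, but none of 12 comparisons had all pairs correlated above 0.1 (r between -0.29 and 0.27), and at most 3 of 4 libraries correlated best with their own number. The numbers were not taken as pairs. With a replicate block the members called for hot minus warm at 2 h numbered 0, with or without lane as a term, and the adjusted p of FAD8 was 0.0510. With the block and lane together, uncalled values changed sign for FAD2-1 (0.46) and FAD3-1 (1.64) for hot minus warm at 2 h, and for FAD7 (0.25), FAD3-1 (0.77) and FAD3-2 (1.33) at 6 h. For cold minus warm they were 1.37 for FAD2-1 at 2 h, and at 24 h 0.92 for FAD2-1, 0.55 for FAD7, 1.48 for FAD8, 2.89 for FAD3-1 and 3.64 for FAD3-2. For hot minus cold they were -0.091 for FAD2-1 at 6 h, and at 24 h -0.13 for FAD8, -0.47 for FAD6 and -0.94 for FAD3-2. FAD3-1 at warm 24 h minus 0 h was 0.34.

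With lane alone, reversed values were 0.035 for FAD2-1 and 0.84 for FAD3-1 for hot minus warm at 2 h, and 0.20 for FAD7, 0.00041 for FAD3-1 and 0.40 for FAD3-2 at 6 h. For cold minus warm they were 0.24 for FAD2-1 at 2 h, and at 24 h 0.41 for FAD7, 0.12 for FAD8, 1.42 for FAD3-1 and 1.62 for FAD3-2. They were -0.061 for FAD6 for hot minus cold at 24 h, -0.031 for FAD3-2 at warm 6 h and 0.17 for FAD3-1 at warm 24 h. Without the 2 libraries apart, hot minus warm at 24 h gave -0.26 for FAD2-1, -0.22 for FAD7, -0.13 for FAD8 and -0.27 for FAD3-2, and hot minus cold at 24 h gave -0.13 for FAD6. FAD3-2 at warm 6 h was then -0.74, FAD8 and FAD3-1 at warm 24 h were -0.45 and 0.054, and the hot change of FAD2-1 was -0.038. FAD2-1 for hot minus cold at 2 h was 0.11 after quantile normalization and 0.015 with no scaling. FAD3-2 at warm 6 h was -0.51 after quantile normalization, -0.14 with libraries shifted to one median and -0.12 with voom weights. FAD3-1 at warm 24 h was 0.24 with voom weights and 0.073 with no scaling. The ratio of FAD3-2 over FAD3-1 for cold minus warm at 6 h was -0.11 with log2 of CPM plus 1. The cause of these reversals was not tested.

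With 1 library left out, sign changes ran between -0.26 and 0.53 for FAD2-1, -0.22 and 0.68 for FAD7, -0.13 and 1.25 for FAD8 and -0.27 and 0.88 for FAD3-2 for hot minus warm at 24 h, -0.57 and 0.22 for FAD3-1 at 2 h, and -0.091 and 0.32 for FAD6 at 6 h. For cold minus warm they ran between -0.35 and 0.092 for FAD2-1 and -0.035 and 0.76 for FAD3-1 at 2 h, -0.037 and 0.38 for FAD6 at 6 h, and -0.63 and 0.13 for FAD3-1 and -0.74 and 0.0065 for FAD8 at 24 h. For hot minus cold they ran between -0.37 and 0.024 for FAD2-1 at 2 h and -0.13 and 0.37 for FAD6 at 24 h. At warm 6 h FAD3-2 ran between -0.74 and 0.67, at warm 24 h FAD3-1 between -0.31 and 0.45 and FAD8 between -0.45 and 0.75, and the hot change of FAD2-1 between -0.038 and 0.76.

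Counts over all genes moved more. Against 1584 genes for hot minus warm at 2 h, lane gave 553, block and lane 209, only the groups compared 2639, and leaving out the libraries apart 2705. Against 1333 at 6 h these gave 267, 192, 2793 and 2110. Against 2907 for hot minus cold at 2 h, lane gave 1767 and block and lane 1010; against 1599 at 6 h they gave 957 and 565, and only the groups compared 4365. For warm 2 h minus 0 h, only the groups compared gave 1813 against 4307. For warm 24 h minus 0 h, 564 genes became 1 with only the groups compared, 337 after quantile normalization, 341 with block and lane, 217 with voom weights and 110 without the libraries apart. For the hot change, 161 became 374 with lane, 454 with block and lane, 87 with no scaling and 47 with only the groups compared. With 1 library left out the count for hot minus warm at 2 h ran between 582 (hot replicate 4) and 1690, and moved by over 1.5 times without hot replicate 1, 3 or 4 or warm replicate 1, 3 or 4. At 6 h it ran between 658 (warm replicate 1) and 1131, with such moves also for hot replicate 2 or 4. For hot minus cold it ran between 1664 (hot replicate 4) and 2849 at 2 h, with such moves also for hot or cold replicate 3, between 1009 (cold replicate 1) and 1312 at 6 h, with such a move also for hot replicate 2, and became 423 at 24 h without hot replicate 2. It ran between 42 (warm 0 h replicate 1) and 1507 (warm 0 h replicate 2) for warm 24 h minus 0 h, with such moves for every warm 0 h and 24 h library except warm 24 h replicate 2, and between 31 (warm 24 h replicate 2) and 711 (hot 24 h replicate 2) for the hot change, with such moves for 10 libraries in all. Cold minus warm had at most 4 genes under any of these, and hot minus warm at 24 h at most 3. Without scaling, the median of all genes moved by 0.47 log2 units at warm 6 h, by 0.19 at warm 2 h and for hot minus cold at 2 h, by 0.13 for hot minus warm at 2 h, by 0.16 for cold minus warm at 24 h and by -0.12 for hot minus cold at 24 h, and 8155 of 10116 calls at warm 6 h were then higher, against 4687 of 8472.

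The depth limits FAD3-1 and FAD3-2, with 3 reads or fewer in 7 and 15 of the 40 libraries.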

Other observations

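Warm 0 h replicate 1 was low for FAD8 (3.38 CPM) and FAD6 (44.2 CPM), while its FAD7 level of 844 CPM lay within the 577 to 1246 CPM of its mates. Its log2 ratio of FAD8 over FAD7 was -7.96, against -4.31, -4.43 and -4.94 in the other warm 0 h libraries.

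Warm 6 h replicate 4 was the lowest of its group for FAD7 (6.40 CPM), FAD8 (3.56 CPM), FAD2-1 (57.3 CPM) and FAD6 (38.5 CPM). Its log2 ratio of FAD8 over FAD7, -0.84, was the highest of that group. In cold leaves at 6 h the ratio of FAD8 over FAD7 reached its highest group mean, 0.527 on a linear scale, while it was 0.371 in warm leaves at 6 h.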
